A study of Mus musculus with 12 samples.

Results

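The 10 genes described here belong to the BCL-2 family and were chosen by name. They are the pro-survival genes *Bcl2*, *Bcl2l1* (encoding BCL-XL) and *Mcl1*, the effector genes *Bax* and *Bak1*, and the BH3-only genes *Bcl2l11* (BIM), *Bbc3* (PUMA), *Pmaip1* (NOXA), *Bad* and *Bmf*. They were 10 of the 24439 gene names in the deposited expression values, and all 10 were among the 12442 genes that were tested. *Bmf* passed the filter on low values only through the TB IL-2nil libraries, in which it was highest, so that a difference was built into its being tested.

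On build mm9, *Bcl2* lies on the minus strand of chromosome 1 (108434755 to 108610851), *Bcl2l1* on the minus strand of chromosome 2 (152593052 to 152657464) and *Mcl1* on the plus strand of chromosome 3 (95462643 to 95467099). *Bcl2l11* lies on the plus strand of chromosome 2 (127951774 to 127988283), *Bbc3* on the plus strand of chromosome 7 (16894965 to 16903554), and *Bmf* on the minus strand of chromosome 2 (118354493 to 118375423).

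The RNA came from cultured T blast cells (TB), which are dividing CD4 T cells, made from spleen CD4 T cells of C57BL/6 C42 mice. These mice carry a fragment of the human IL3/CSF2 locus, which all 4 groups therefore shared. Cells of every group were activated with 2 µg/ml of the lectin concanavalin A for 40 h and then expanded in 50 U/ml IL-2. TB IL-2 cells stayed in IL-2, and TB IL-2nil cells spent the last 16 h without it. TB+ IL-2 and TB+ IL-2nil cells were treated in the same ways and then received PMA/I for 2 h, which is phorbol myristate acetate at 20 ng/ml together with calcium ionophore at 2 µM, a pair of drugs that mimics signaling from the T cell receptor. Each group had 3 libraries, and nothing in the labels says whether they came from separate mice, so the P values measure the spread between libraries. The comparisons asked what IL-2 and PMA/I each did to the transcripts of these genes, and whether the effect of one differed with the other.

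Proteins of this family decide whether a cell under stress undergoes mitochondrial apoptosis. BAX and BAK form pores in the outer mitochondrial membrane and release cytochrome c, the pro-survival proteins hold BAX and BAK in check, and the BH3-only proteins bind and block the pro-survival proteins or engage BAX and BAK directly. Activated T cells are known to depend on cytokines such as IL-2 for survival, and BIM is known as a main BH3-only protein in the death of T cells deprived of cytokine.

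Before any comparison, 2 libraries had to be placed. In the study's own list of values per library, the library labelled TB IL-2nil replicate 3 stands in the TB+ IL-2 group and the library labelled TB+ IL-2 replicate 3 in the TB IL-2nil group, and this placement was used here. *Il2* itself, a gene that PMA/I is known to induce, had a deposited level of 1368 FPKM in the library labelled TB IL-2nil replicate 3 and of 0.29 FPKM in the library labelled TB+ IL-2 replicate 3, against 1095 to 2374 FPKM in the other TB+ libraries and 0 to 1.18 FPKM in the other TB libraries. Every difference below was also computed with both libraries as labelled and without both of them. As labelled, very few genes passed the test in any comparison, 0.121% of all genes for IL-2 in TB cells.

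Levels are given as scaled TPM, which are the deposited FPKM rescaled to a sum of 1000000 per library and then to an equal upper quartile. Log2 differences were fitted in limma on log2(scaled TPM + 1), which understates changes of low genes, and a gene was called when its P, adjusted by Benjamini-Hochberg across the 12442 genes, was under 0.05. The files hold no read counts, so the absolute depth behind a value is unknown and no counting interval is given. Low values gave a relative depth of 0.409 to 1.25 between libraries, lowest in TB IL-2nil replicate 2. The 6 markers of CD4 T cells were present in every library, with summed levels of 1356 to 2414 scaled TPM, and *Cd8a* and *Cd8b1* together had 6.91 to 31.9 scaled TPM. None of the natural killer cell markers in the list, *Ncr1*, *Klrb1c* and *Klre1*, passed the filter on low values. *Ncr1* was listed at 0 in all 12 libraries, *Klre1* was above 0 only in TB+ IL-2, and *Klrb1c* was above 0 in every group.

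Promoter windows from RefSeq, running from 250 bases before to 50 bases after an annotated start, were searched for short motifs of factors that act in IL-2 or PMA/I signaling. FOXO factors, which IL-2 signaling through AKT is known to hold out of the nucleus, bind TGTTTAC. That motif lay in 2 of the 17 windows found for 9 of the genes, and in 3.65% of all 32851 windows of the same length. Both matches were in BH3-only genes, and the 2 windows are shown so that the motif can be seen in its surroundings. The strand shown is the gene's own, 5′ to 3′, in build GRCm38.p6, and capitals mark the motif or its reverse complement.
Bcl2l11, chr2:128125788-128126087, plus strand: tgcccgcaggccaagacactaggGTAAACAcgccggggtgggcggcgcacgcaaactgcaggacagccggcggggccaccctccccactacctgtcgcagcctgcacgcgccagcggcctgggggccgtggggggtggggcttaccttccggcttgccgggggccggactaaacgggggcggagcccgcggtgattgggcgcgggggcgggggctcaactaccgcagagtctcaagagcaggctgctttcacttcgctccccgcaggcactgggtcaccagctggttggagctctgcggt
Bbc3, chr7:16310011-16310310, plus strand: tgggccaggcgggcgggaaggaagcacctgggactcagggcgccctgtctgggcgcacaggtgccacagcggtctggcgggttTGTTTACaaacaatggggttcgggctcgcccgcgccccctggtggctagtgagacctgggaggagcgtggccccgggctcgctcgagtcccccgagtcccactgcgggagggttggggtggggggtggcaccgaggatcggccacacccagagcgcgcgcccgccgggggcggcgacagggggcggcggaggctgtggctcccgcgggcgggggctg
The match stood at bases 24 to 30 of the *Bcl2l11* window and at bases 84 to 90 of the *Bbc3* window, counted from 1 at the left end. The STAT motif TTCNNNGAA, which binds the STAT5 factors activated by IL-2, was in none of the 17 windows and in 8.3% of all windows, and the AP-1 motif TGANTCA, a site for factors activated by PMA/I, was in none of the 17 and in 7.81% of all. Both strands were searched, the 3 motifs do not share sequence, and a match or its absence says nothing of binding.

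IL-2 changed most of these genes in TB cells. With IL-2, *Bcl2*, *Bcl2l1* and *Bak1* were higher and *Mcl1*, *Bcl2l11*, *Bbc3* and *Bmf* were lower, so that 7 of the 10 genes passed the test, where 39.6% of all genes tested did. Leaving out *Bmf*, for which a difference was built in, 6 of 9 passed. *Bcl2*, *Bcl2l1*, *Bcl2l11* and *Bbc3* differed more than 3-fold, as did 7.42% of all genes. The median log2 difference of the 10 genes was 0.04, and that of all genes was -0.13.

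*Bcl2*, the founding pro-survival gene, had 205, 197 and 136 scaled TPM in TB IL-2 replicates 1 to 3, and 72.2, 27.7 and 42.3 scaled TPM in TB IL-2nil. Every TB IL-2 library lay above every TB IL-2nil library. The log2 difference was 1.98 (SE 0.38, adjusted P = 0.00235), which is 3.94-fold. *Bcl2l1* had 41.2, 64 and 45.1 scaled TPM with IL-2 and 12.3, 12.6 and 17 scaled TPM without it. These groups did not overlap either, and the spread was narrow where IL-2 was absent. This was a log2 difference of 1.76 (SE 0.26, adjusted P = 0.000615), or 3.39-fold. *Mcl1*, whose protein turns over fast and is needed by T cells throughout life, went the other way. Its level was 167, 142 and 155 scaled TPM in TB IL-2 and 227, 244 and 262 scaled TPM in TB IL-2nil, again with no overlap. Its log2 difference was -0.66 (SE 0.14, adjusted P = 0.0035), and *Mcl1* was 1.58-fold higher without IL-2.

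Among the effectors, *Bak1* had 61.4, 92.5 and 84.8 scaled TPM in TB IL-2 and 30.7, 43.3 and 46.6 scaled TPM in TB IL-2nil. The groups did not overlap, and the log2 difference was 0.97 (SE 0.26, adjusted P = 0.0123). Without TB IL-2 replicate 2 it was 0.85 with an adjusted P of 0.0507, so this call rested on that library. *Bax* had 125, 87.3 and 94.9 scaled TPM with IL-2 and 93.9, 54.6 and 81.6 scaled TPM without it. The *Bax* groups overlapped. The library with IL-2 was higher in 3 of 3 pairs of the same replicate number, and the share of all genes with such pairs is not given. Its log2 difference of 0.43 (95% interval -0.19 to 1.05, adjusted P = 0.248) did not pass, but did when the replicate number was a block (adjusted P = 0.0309).

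*Bcl2l11* had 38.2, 29 and 33.9 scaled TPM in TB IL-2 and 77.3, 140 and 124 scaled TPM in TB IL-2nil. The lowest library without IL-2 was thus above the highest with it. The log2 difference was -1.69 (SE 0.22, adjusted P = 0.00032), a level 3.23-fold higher without IL-2. *Bbc3* had 20.3, 6.08 and 13.3 scaled TPM with IL-2, and 44.9, 36.7 and 37.2 scaled TPM without it. The TB IL-2 libraries were spread wider than those of TB IL-2nil but lay all below them, with a log2 difference of -1.65 (SE 0.41, adjusted P = 0.00943). *Bmf*, whose protein is held at the actomyosin cytoskeleton in healthy cells, was near the floor of detection with 0.385, 0.0821 and 0.333 scaled TPM in TB IL-2, against 2.06, 1.67 and 1.75 scaled TPM in TB IL-2nil. Its log2 difference was -1.16 (SE 0.15, adjusted P = 0.000271). As its level was below 1 scaled TPM in 1 of these groups, the size moved with the pseudocount, from -0.37 to -2.51 over the alternatives.

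*Bad* and *Pmaip1* did not pass. *Bad*, whose protein is inactivated when growth factor signaling phosphorylates it, had 17.5, 13.9 and 17.4 scaled TPM in TB IL-2 and 18.6, 21.8 and 17.6 scaled TPM in TB IL-2nil. These ranges lay apart by a narrow margin, and the log2 difference was -0.24 (95% interval -0.83 to 0.36, adjusted P = 0.511). *Pmaip1*, whose protein binds mainly MCL1, had 1.89 to 5.46 scaled TPM with IL-2 and 1.35 to 5.08 scaled TPM without it, with a log2 difference of 0.32 (95% interval -0.61 to 1.25, adjusted P = 0.574). Of the 10 genes, 8 had groups that did not overlap, as did 53.2% of all genes. The 8 include *Bmf*, for which a difference was built in, and *Bad*, apart only by 17.5 against 17.6 scaled TPM.

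As labelled, only *Bcl2l11* of the 10 genes passed in this comparison, with a log2 difference of -1.68 (adjusted P = 0.0427). As labelled, *Bcl2* had a log2 difference of 1.57 (adjusted P = 0.306), *Bcl2l1* of 0.95 (adjusted P = 0.701) and *Bbc3* of -0.61 (adjusted P = 0.87). Without both libraries 7 genes passed, with 32.3% of all genes, and *Bmf*, for which a difference was built in, was among the 7. The log2 difference was then 1.95 for *Bcl2* (adjusted P = 0.0137) and 1.90 for *Bcl2l1* (adjusted P = 0.00306). For *Bcl2l11* it was -1.61 (adjusted P = 0.00334) and for *Bbc3* -1.69 (adjusted P = 0.0311). The summed level of 3 of the 4 B cell markers in the list, *Cd79a*, *Cd79b* and *Ms4a1*, was 20.4 to 26.6 scaled TPM in TB IL-2nil and 5.05 to 9.74 scaled TPM in TB IL-2. The sum of the 6 CD4 T cell markers was also higher in TB IL-2nil, at 2210 to 2414 scaled TPM against 1425 to 1482. The part of either in these differences was not tested. In cultures, fewer cells of one kind and less RNA per cell cannot be told apart, and the methods say that dead cells were removed only where required.

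**Figure D1:**
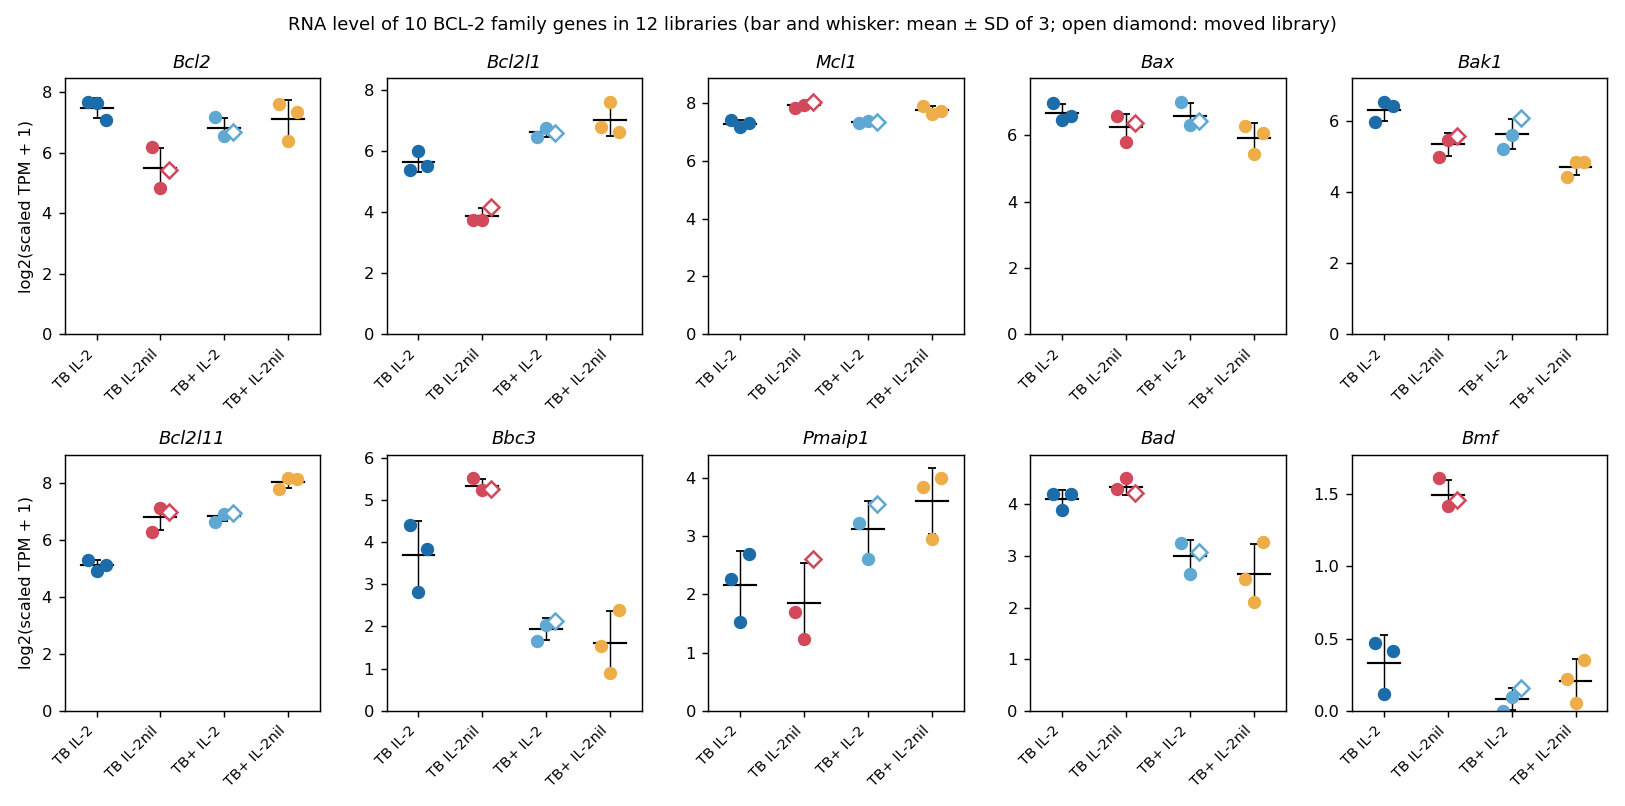
Level of each of the 10 genes as log2(scaled TPM + 1) on the vertical axis, by group, with 1 point per library, a bar at the mean and a whisker of 1 SD (n = 3). Open diamonds are the 2 libraries placed against their labels. *Bcl2* and *Bcl2l1* were lowest in TB IL-2nil, where *Bbc3* and *Bmf* were highest, and *Bcl2l11* was lowest in TB IL-2 and highest in TB+ IL-2nil.

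PMA/I added to IL-2 for 2 h changed 4 of the 10 genes, while 35.1% of all genes passed. *Bcl2l1* and *Bcl2l11* rose, and *Bbc3* and *Bad* fell. *Bcl2l1* had 88.1, 109 and 96.6 scaled TPM in TB+ IL-2, above the 41.2 to 64 scaled TPM of TB IL-2. On the log2 scale the difference was 0.97 (SE 0.26, adjusted P = 0.0149). It did not pass when TB IL-2 replicate 1, TB IL-2 replicate 3 or TB+ IL-2 replicate 2 was left out, with adjusted P of 0.0579, 0.0503 and 0.0546. *Bcl2l11* had 99, 120 and 121 scaled TPM in TB+ IL-2, more than in any of the TB IL-2 libraries at 29 to 38.2 scaled TPM. Its log2 difference of 1.72 (SE 0.22, adjusted P = 0.000241), or 3.3-fold, took it past 3-fold, as 3.94% of all genes were in this direction.

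*Bbc3* had 2.12, 3.06 and 3.4 scaled TPM in TB+ IL-2 and was thus below every TB IL-2 library. This gave a log2 difference of -1.76 (SE 0.41, adjusted P = 0.00743), 3.39-fold lower with PMA/I. *Bad* had 8.53, 5.3 and 7.42 scaled TPM in TB+ IL-2, against 13.9 to 17.5 in TB IL-2, with a log2 difference of -1.11 (SE 0.27, adjusted P = 0.00879). *Bcl2* had 144, 92.9 and 101 scaled TPM with PMA/I, and its groups overlapped. The log2 difference of -0.67 (95% interval -1.50 to 0.16, adjusted P = 0.195) did not pass. *Mcl1* had 156, 165 and 162 scaled TPM in TB+ IL-2, within the range of TB IL-2, and the 95% interval of its log2 difference was -0.24 to 0.36. The share of all genes without overlap is not given for this comparison either.

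*Bak1* and *Pmaip1* lay close to the threshold here. *Bak1* had 36.2, 48 and 66.9 scaled TPM in TB+ IL-2, with a log2 difference of -0.67 (adjusted P = 0.0628), and it passed with the replicate block (adjusted P = 0.00372), without TB IL-2 replicate 1 (adjusted P = 0.0456) or without the library labelled TB IL-2nil replicate 3 (adjusted P = 0.0242). *Pmaip1* had 8.38, 5.08 and 10.7 scaled TPM in TB+ IL-2, and its groups overlapped. Its log2 difference was 0.97 (adjusted P = 0.0983, and 0.00102 with the replicate block). As labelled, only *Bcl2l11* passed, with 0.498% of all genes, at a log2 difference of 1.74 (adjusted P = 0.0227). Without both libraries 5 genes passed, with 30.9% of all genes, and the log2 difference was 1.68 for *Bcl2l11* (adjusted P = 0.00226), 0.98 for *Bcl2l1* (adjusted P = 0.0386), -1.86 for *Bbc3* (adjusted P = 0.0218), -1.15 for *Bad* (adjusted P = 0.0275) and -0.89 for *Bak1* (adjusted P = 0.0285).

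In IL-2nil cells, PMA/I changed 7 of the 10 genes, in a comparison in which 61.2% of all genes passed, and 6 of 9 leaving out *Bmf*. *Bcl2*, *Bcl2l1*, *Bcl2l11* and *Pmaip1* rose, and *Bbc3*, *Bad* and *Bmf* fell. This comparison and that of IL-2 in TB cells share the TB IL-2nil libraries, and the values are given side by side for that reason. The median log2 difference of the 10 genes was -0.26, against -0.38 for all genes. The B cell marker sum moved here as well, from 20.4 to 26.6 scaled TPM in TB IL-2nil to 4.74 to 12.1 in TB+ IL-2nil. It was 2.09 to 2.81 scaled TPM in TB+ IL-2, below TB IL-2 (5.05 to 9.74) and below TB+ IL-2nil. Its part in these 3 comparisons was not tested. *Cish*, whose locus the paper calls IL-2-regulated, had at most 7.282 deposited FPKM in TB IL-2nil and 107.6 to 139.3 in TB+ IL-2nil. In TB+ IL-2 *Cish* had 74.76 to 112.6 FPKM, so it was not lower in TB+ IL-2nil. *Il2ra* was lower there, at 139.2 to 149.6 FPKM against 243.6 to 262.9. IL-2 signaling in TB+ IL-2nil cells was not tested. IL-2nil thus names only the culture, also for IL-2 in TB+ cells and the interaction.

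*Bcl2l1* had 111, 197 and 99.1 scaled TPM in TB+ IL-2nil, against 12.3 to 17 in TB IL-2nil. The rise was 8.81-fold, with a log2 difference of 3.14 (SE 0.26, adjusted P = 4.64e-06). *Bcl2* had 196, 82.8 and 160 scaled TPM in TB+ IL-2nil, all above TB IL-2nil, with replicate 2 lowest in both groups. The log2 difference was 1.63 (SE 0.38, adjusted P = 0.00327), or 3.08-fold. *Bcl2l11* reached its highest level here, at 223, 288 and 284 scaled TPM. The log2 difference from TB IL-2nil was 1.25 (SE 0.22, adjusted P = 0.000609), which is 2.37-fold. *Pmaip1* had 13.4, 6.78 and 15 scaled TPM, all above the TB IL-2nil libraries, and a log2 difference of 1.76 (SE 0.42, adjusted P = 0.00391).

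*Bbc3* had the largest difference of the 10 genes in any of the 4 comparisons of groups. Its level in TB+ IL-2nil was 1.88, 0.848 and 4.27 scaled TPM, against 36.7 to 44.9 in TB IL-2nil. The log2 difference was -3.74 (SE 0.41, adjusted P = 2.47e-05), a 13.3-fold lower level after 2 h. *Bad* had 4.89, 3.32 and 8.7 scaled TPM in TB+ IL-2nil, with a log2 difference of -1.69 (SE 0.27, adjusted P = 0.000278). *Bmf* had 0.162, 0.0384 and 0.275 scaled TPM and a log2 difference of -1.29 (SE 0.15, adjusted P = 3.21e-05). For *Bbc3*, *Bad* and *Bmf* every TB+ IL-2nil library lay below every TB IL-2nil library. For *Bmf* this was partly built in by the filter, and the share of all genes without overlap is not given for this comparison. *Mcl1* had 237, 197 and 211 scaled TPM in TB+ IL-2nil, overlapping the range of TB IL-2nil, with a log2 difference of -0.18 (95% interval -0.48 to 0.12, adjusted P = 0.261).

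Neither effector passed against TB IL-2nil. *Bak1* had 20.6, 28.1 and 28.1 scaled TPM in TB+ IL-2nil, below all TB IL-2nil libraries, and a log2 difference of -0.62 (adjusted P = 0.0541). It passed with the replicate block (adjusted P = 0.00279) or without TB IL-2nil replicate 1 (adjusted P = 0.0268). *Bax* had 76, 42 and 65.7 scaled TPM, with a log2 difference of -0.33 (95% interval -0.95 to 0.30, adjusted P = 0.333). As labelled, *Bcl2l11* alone passed, with 5.38% of all genes, at a log2 difference of 1.26 (adjusted P = 0.0312), while *Bcl2l1* had 2.33 (adjusted P = 0.0962) and *Bbc3* -2.70 (adjusted P = 0.118). Without both libraries 7 genes again passed, *Bmf* among them, with 53.7% of all genes. The log2 difference was then 3.27 for *Bcl2l1* (adjusted P = 6.85e-05), 1.33 for *Bcl2l11* (adjusted P = 0.00282) and -3.78 for *Bbc3* (adjusted P = 0.000331).

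**Figure D2:**
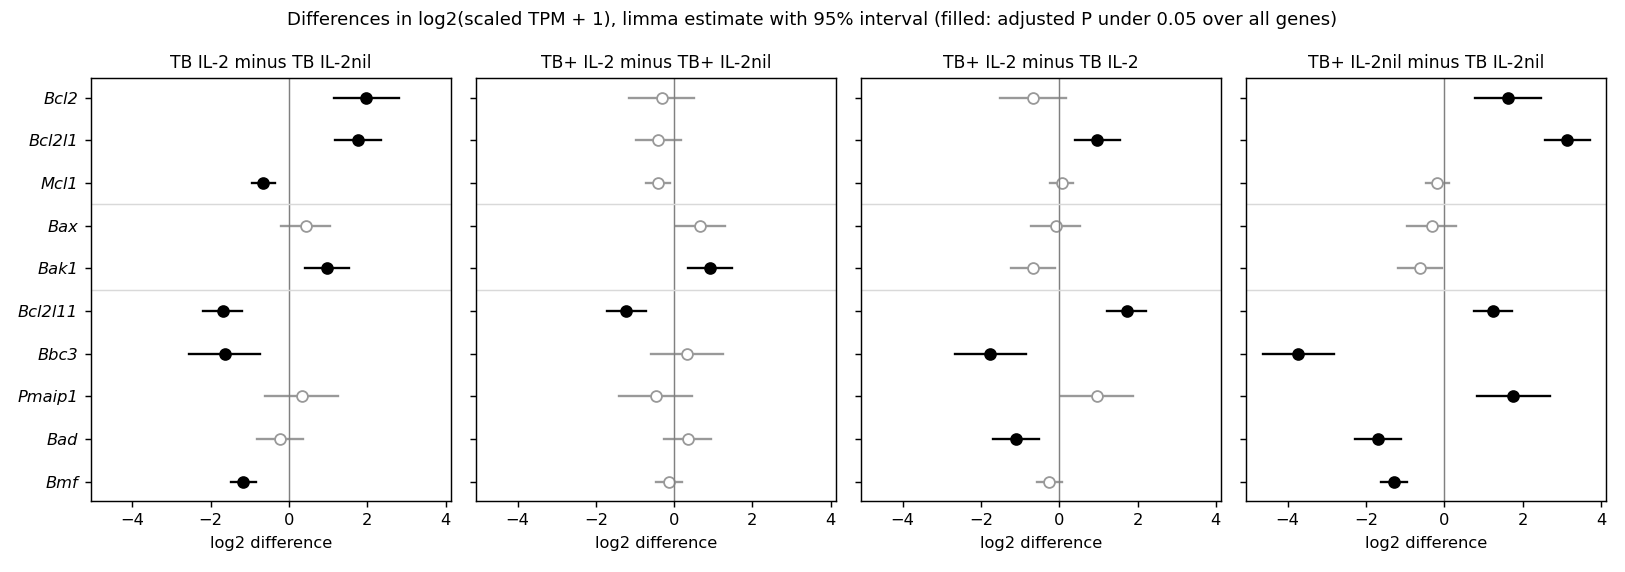
Log2 differences of the 10 genes with 95% intervals on the horizontal axis, in the 4 comparisons of 2 groups. Filled points passed the test (adjusted P under 0.05). *Bcl2* and *Bcl2l1* had differences near 2 for IL-2 in TB cells and slightly below 0 for IL-2 in TB+ cells, and *Bcl2l11* passed in all 4 comparisons.

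Between TB+ IL-2 and TB+ IL-2nil only *Bcl2l11* and *Bak1* passed, 2 of 10, with 21.3% of all genes. *Bcl2l11* was lower with IL-2, at 99 to 121 scaled TPM against 223 to 288, a log2 difference of -1.22 (SE 0.22, adjusted P = 0.00381). As labelled, where 0.217% of all genes passed, the difference was -1.20 (adjusted P = 0.0654), and without both libraries, where 9.71% did, it was -1.26 (adjusted P = 0.0215). *Bak1* was higher with IL-2, at 36.2 to 66.9 scaled TPM against 20.6 to 28.1, a log2 difference of 0.92 (SE 0.26, adjusted P = 0.0278). The call of *Bak1* was lost as labelled (adjusted P = 0.23), without both libraries (adjusted P = 0.123), and without each of these libraries, the one labelled TB IL-2nil replicate 3 (adjusted P = 0.113), TB+ IL-2 replicate 2 (adjusted P = 0.0665) and TB+ IL-2nil replicate 1 (adjusted P = 0.104).

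The pro-survival genes *Bcl2* and *Bcl2l1* did not pass in this comparison. *Bcl2* had a log2 difference of -0.32 (95% interval -1.15 to 0.52, adjusted P = 0.593), and *Bcl2l1* of -0.41 (95% interval -0.98 to 0.17, adjusted P = 0.299). Both intervals lay below the log2 differences of 1.98 and 1.76 that IL-2 had made in TB cells. *Mcl1* had a log2 difference of -0.41 (adjusted P = 0.0506), and *Bax* of 0.67 (adjusted P = 0.117). Neither gene overlapped between these groups, and the share of all genes without overlap is not given for this comparison. With the replicate block 5 genes passed, with 33.6% of all genes, the added ones being *Mcl1* (adjusted P = 0.0311), *Bax* (adjusted P = 0.00703) and *Pmaip1* (log2 difference -0.47, adjusted P = 0.0399). *Mcl1* also passed without TB+ IL-2nil replicate 2 (log2 difference -0.47, adjusted P = 0.0482).

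The interaction tested directly whether the effect of IL-2 differed between TB+ and TB cells. *Bcl2*, *Bcl2l1* and *Bmf* passed, 3 of 10, with 4.23% of all genes, and 2 of 9 leaving out *Bmf*, whose interaction rests on the group through which it came to be tested. For *Bcl2* the effect of IL-2 was lower by 2.29 on the log2 scale in TB+ cells (interaction -2.29, SE 0.54, adjusted P = 0.0403). For *Bcl2l1* the interaction was -2.17 (SE 0.37, adjusted P = 0.0179), and for *Bmf* it was 1.04 (SE 0.21, adjusted P = 0.0268). *Bbc3* had an interaction of 1.98 (SE 0.59, adjusted P = 0.0825), which passed with the replicate block (adjusted P = 0.0391), without TB IL-2 replicate 1 (adjusted P = 0.0402) or without TB+ IL-2nil replicate 3 (adjusted P = 0.0263). *Pmaip1* had -0.79 (adjusted P = 0.456, and 0.0455 with the block). With the block 5 of the 10 passed, with 11.9% of all genes.

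The interaction calls were lost under many alternatives. Moving the 2 libraries leaves each interaction estimate as it was, by construction, but widens its error, and as labelled no gene of the 10 passed (adjusted P = 0.914 for *Bcl2*, *Bcl2l1* and *Bmf*). Without both libraries none of the 10 passed and 0.0324% of all genes did, with adjusted P of 0.139 for *Bcl2*, 0.0738 for *Bcl2l1* and 0.104 for *Bmf*. Leaving out 1 library at a time left 0 to 4 genes, and no call remained without TB IL-2nil replicate 2, where *Bcl2l1* had -2.10 (adjusted P = 0.0535), *Bcl2* -1.97 (adjusted P = 0.091) and *Bmf* 1.08 (adjusted P = 0.0659). Only 1 of the 10 was called without TB IL-2 replicate 2, TB IL-2 replicate 3, the library labelled TB IL-2nil replicate 3, TB+ IL-2 replicate 1, TB+ IL-2 replicate 2 or TB+ IL-2nil replicate 1. The call of *Bcl2l1* was lost in 4 of 23 alternatives, that of *Bcl2* in 14 and that of *Bmf* in 15. For *Bcl2l11* the interaction was 0.47 (95% interval -0.22 to 1.17, adjusted P = 0.398), so that its responses to IL-2 and to PMA/I were not shown to depend on each other.

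The scaling of the libraries moved several calls, but reversed no difference that was called. Without the upper-quartile step the median log2 difference of all genes shifted from -0.38 to -0.78 for PMA/I in IL-2nil cells and from -0.04 to 0.23 for IL-2 in TB+ cells. Without the step the calls of *Bcl2* and *Bcl2l11* for PMA/I in IL-2nil cells were lost (log2 difference 1.07, adjusted P = 0.0507, and 0.69, adjusted P = 0.0859). The calls of *Mcl1* (-0.74, adjusted P = 0.0792) and *Bak1* (0.89, adjusted P = 0.061) for IL-2 in TB cells, of *Bcl2l1* for PMA/I with IL-2 (0.90, adjusted P = 0.0548) and of *Bcl2l11* for IL-2 in TB+ cells (-0.82, adjusted P = 0.136) were lost too. *Mcl1*, which did not pass for PMA/I in IL-2nil cells, was called lower there without the step (-0.74, adjusted P = 0.0389) and with quantile normalization (-0.73, adjusted P = 0.00171), and *Bak1* was called lower without the step (-1.16, adjusted P = 0.00708). The calls of *Bcl2l11* for IL-2 in TB cells and for PMA/I with IL-2 were kept under all 18 alternatives, including the labels as deposited.

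**Figure D3:**
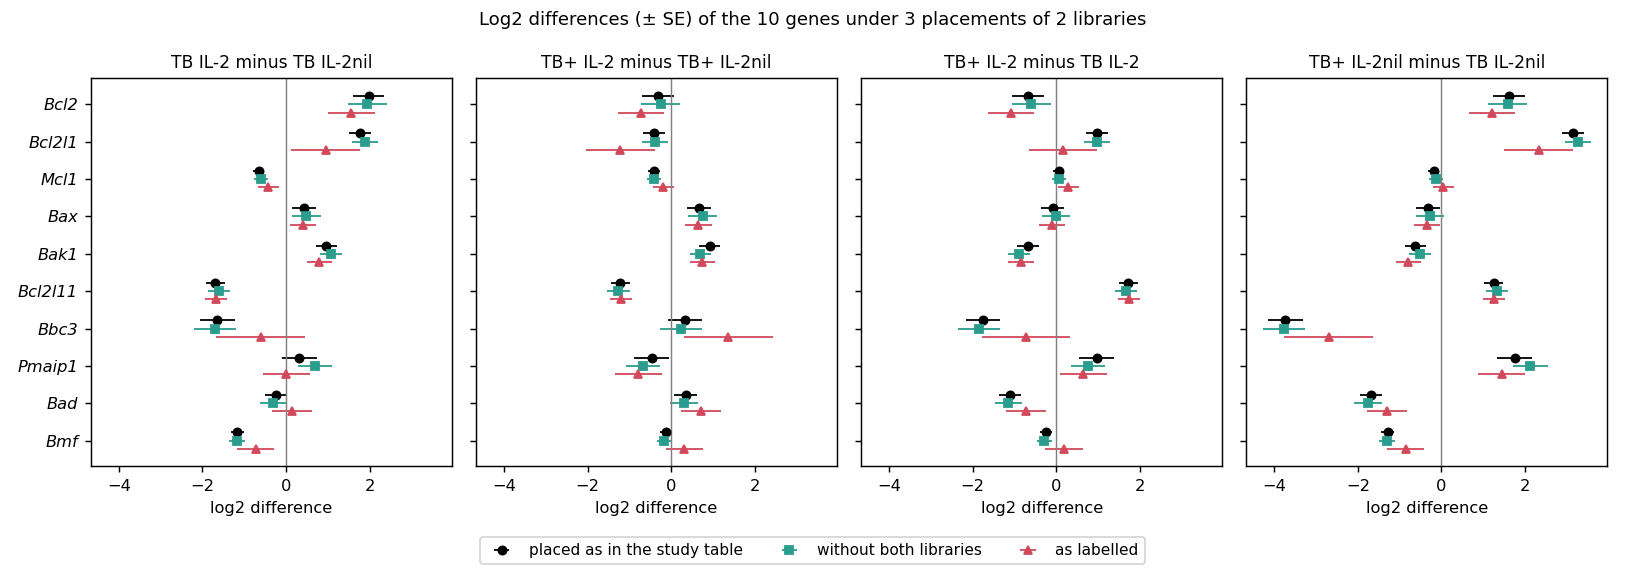
Log2 differences (points) with their SE (bars) of the 10 genes in the 4 comparisons, for 3 placements of the 2 libraries. Circles are the placement used here, squares leave out both libraries and triangles keep the labels. Circles and squares lay close together, triangles of *Bcl2l1*, *Bbc3* and *Bmf* lay apart with wide bars, and for *Bcl2l11* all 3 lay together.

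Because TPM are per length, levels can also be set against each other within a library. In TB IL-2 cells *Bcl2* (179 ± 37.9 scaled TPM, SD, n = 3) and *Mcl1* (155 ± 12.7) were the highest of the 10, and their ranges overlapped. *Bax* and *Bak1* came next, overlapping each other and below *Mcl1*, and were followed by *Bcl2l1* and *Bcl2l11*, whose ranges lay apart. In TB IL-2nil *Mcl1* (244 ± 17.4 scaled TPM) stood alone at the top, followed by *Bcl2l11* (114 ± 32.6) and, with overlap from one to the next, *Bax*, *Bcl2*, *Bak1* and *Bbc3*. *Bcl2l1* fell in that group to the eighth place, at 13.9 ± 2.62 scaled TPM. In TB+ IL-2nil *Bcl2l11* (265 ± 36.5 scaled TPM) had the highest mean, with a range that overlapped that of *Mcl1* (215 ± 20.4). *Bmf* was the lowest in every group.

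Summed by role, these levels gave each group a profile of its own, described here without a test. The 3 pro-survival genes summed to 384 ± 41.6 scaled TPM in TB IL-2, 305 ± 19.1 in TB IL-2nil, 371 ± 15 in TB+ IL-2 and 498 ± 41.1 in TB+ IL-2nil. The 5 BH3-only genes summed to 67.2 ± 14.9, 178 ± 29.4, 131 ± 12.2 and 285 ± 36.5 scaled TPM in the same order. The ratio of the first sum to the second was therefore highest in TB IL-2, at 5.16, 7.89 and 4.77 in its libraries. It was 2.15, 1.41 and 1.73 in TB IL-2nil, 3.28, 2.75 and 2.53 in TB+ IL-2, and 2.24, 1.59 and 1.51 in TB+ IL-2nil. TB IL-2nil and TB+ IL-2nil overlapped in this ratio, and the third value of TB IL-2nil and of TB+ IL-2 is that of a moved library. The pro-survival sum leaves out other pro-survival genes, among them *Bcl2a1b* and *Bcl2a1d*. In TB+ IL-2nil these had 593 ± 84.5 and 92 ± 11.7 scaled TPM, and in TB+ IL-2 269 ± 83.8 and 34.3 ± 9.21. They had 20.2 ± 3.33 and 6.62 ± 1.85 in TB IL-2nil, and 7.96 ± 3 and 2.23 ± 1.21 in TB IL-2. The ratios, their order and their overlap therefore hold only for the genes summed.

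The makeup of the sums differed as well. *Mcl1* made up 72.9 to 85.8% of the pro-survival sum in TB IL-2nil and 35.2 to 46.2% in the libraries of the other groups. These shares are of a sum without *Bcl2a1b* and *Bcl2a1d*. *Bcl2l11* made up 53.3 to 69.4% of the BH3-only sum in TB IL-2nil, where *Bbc3* and *Bad* accounted for most of the rest, and 91 to 96.3% in TB+ IL-2nil. As a description of a pair chosen after its values were seen, *Bcl2l11* was 0.453 to 0.928 times the level of *Bcl2l1* in TB IL-2, 6.29 to 11.1 times in TB IL-2nil, 1.1 to 1.25 times in TB+ IL-2 and 1.47 to 2.87 times in TB+ IL-2nil. The effector genes summed to 182 ± 3.46 scaled TPM in TB IL-2 and to 86.8 ± 14.6 in TB+ IL-2nil, the opposite order to the BH3-only sum.

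**Figure D4:**
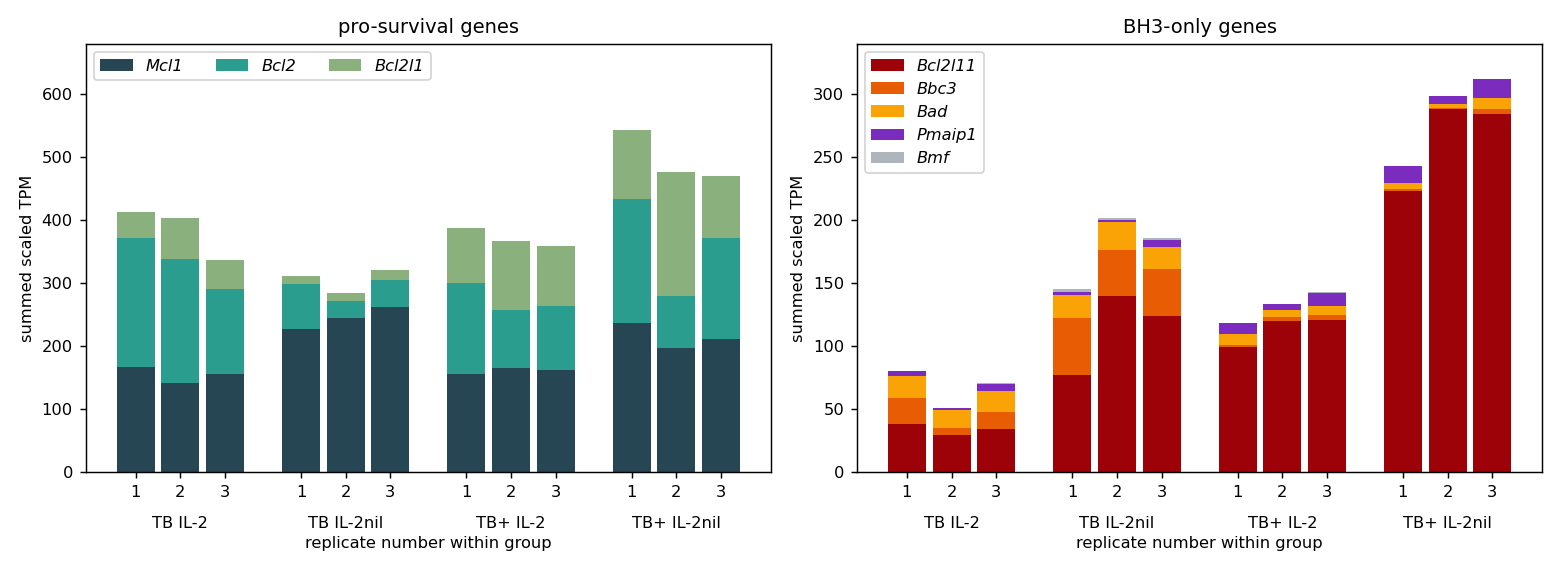
Stacked scaled TPM of the 3 pro-survival genes (left) and the 5 BH3-only genes (right), 1 bar per library, grouped by condition. Replicate 3 of TB IL-2nil and of TB+ IL-2 are the moved libraries. *Mcl1* formed most of the pro-survival bar in TB IL-2nil, and *Bcl2l11* formed nearly all of the BH3-only bar in TB+ IL-2nil.

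Across the 12 libraries, which share the 4 groups and the depth of each library, some of the 10 genes followed each other. Pearson's r of log2(scaled TPM + 1) was 0.920 between *Bbc3* and *Bad* and 0.899 between *Bbc3* and *Bmf*, and -0.972 between *Bcl2l1* and *Bbc3*. Among 11395 genes searched, the closest to *Bcl2l1* were *Timm17a* (r = 0.986), a subunit of the mitochondrial import channel, and *Umps* (r = 0.984), an enzyme of pyrimidine synthesis. The closest to *Bbc3* was *Ccng2* (r = 0.991), which encodes cyclin G2, and the closest to *Bmf* was *Frat1* (r = 0.988). *Bcl2l11* was closest to *Kctd12* (r = 0.978) and *Adora2a* (r = 0.971), the gene of an adenosine receptor. *Mcl1* was closest to *Fmo1* (r = 0.970), *Bak1* to *Tmem261* (r = 0.981), *Bad* to *Necap2* (r = 0.981), *Pmaip1* to *Hdgfrp3* (r = 0.971), *Bax* to *Gstp1* (r = 0.934) and *Bcl2* to *Luzp1* (r = 0.910).

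Other genes of the apoptosis machinery, 60 in 4 lists, gave 55 that were tested. Of these 55, IL-2 in TB cells changed 25, of which 14 were higher and 11 lower with IL-2, where 39.6% of all genes passed. PMA/I changed 27 with IL-2 (12 up, 15 down; 35.1% of all genes) and 36 without it (15 up, 21 down; 61.2% of all genes). The 15 up without IL-2 include *Bcl2a1c*, at most 0.451 scaled TPM in TB IL-2nil and 0.627 to 3.15 in TB+ IL-2nil. It passed the filter on low values only through TB+ libraries, so a rise was partly built in. IL-2 in TB+ cells changed 22 (14 higher, 8 lower), with 21.3% of all genes. As labelled these counts were 0, 1, 8 and 0.

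Of 12 other BCL-2 family genes tested, 2 were higher and 4 lower with IL-2 in TB cells, where 39.6% of all genes passed. The pro-survival genes *Bcl2a1b* and *Bcl2a1d*, near-identical copies between which reads may be split, were the most responsive to PMA/I. *Bcl2a1b* had 7.96 ± 3 scaled TPM in TB IL-2 and 269 ± 83.8 in TB+ IL-2, a log2 difference of 4.92 (SE 0.27, adjusted P = 6.17e-07), and it reached 593 ± 84.5 in TB+ IL-2nil. *Bcl2a1d* rose by 3.63 on the log2 scale in IL-2nil cells (SE 0.30, adjusted P = 4.52e-06). In TB cells both were lower with IL-2, *Bcl2a1b* by -1.28 (adjusted P = 0.00416), the same direction as *Mcl1* and opposite to *Bcl2* and *Bcl2l1*. *Bnip3*, a mitochondrial protein of the wider family that acts in mitophagy, was higher with IL-2, at 30.3 ± 15.3 scaled TPM in TB+ IL-2 and 2.77 ± 1.81 in TB+ IL-2nil (log2 difference 3.03, adjusted P = 0.00224). As labelled, *Bcl2a1b* had 3.81 for PMA/I with IL-2 (adjusted P = 0.144) and *Bnip3* 2.39 for IL-2 in TB+ cells (adjusted P = 0.135). Without both libraries these were 5.17 (adjusted P = 7.13e-06) and 2.67 (adjusted P = 0.0175).

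The caspases, which cut cellular proteins once BAX and BAK have opened mitochondria, were mixed. Of 19 genes for caspases, the apoptosome and inhibitors of apoptosis, PMA/I raised 4 and lowered 10 in IL-2nil cells, where 61.2% of all genes passed and the median log2 difference of all genes was -0.38. *Casp9*, the initiator that the apoptosome activates, fell from 6.18 ± 0.956 to 0.694 ± 0.367 scaled TPM (log2 difference -2.10, adjusted P = 2.34e-05), and *Casp2* fell from 45.6 ± 1.91 to 8.81 ± 3.11 (log2 difference -2.31, adjusted P = 4.11e-05). *Cycs*, the gene of cytochrome c, had 12.9 ± 1.21 scaled TPM in TB IL-2nil and 53.2 ± 13.7 in TB IL-2 (log2 difference 1.93, adjusted P = 0.000231). It was among the 4 that PMA/I raised in IL-2nil cells, with 55.1 ± 9.97 scaled TPM in TB+ IL-2nil. So were *Casp6*, from 17.4 ± 3.75 to 36.6 ± 12.2, and *Birc3*, an inhibitor of apoptosis, from 72.8 ± 9.06 to 160 ± 27.1. As labelled none of these 3 was called as raised, and without both moved libraries all were. *Birc5*, encoding survivin, which also acts in cell division, was higher with IL-2 in TB+ cells by 2.95 (SE 0.79, adjusted P = 0.0234). As labelled, *Casp9* had -1.56 (adjusted P = 0.104) and *Casp2* -1.74 (adjusted P = 0.102) for PMA/I in IL-2nil cells. Without both libraries they had -2.05 (adjusted P = 0.000272) and -2.28 (adjusted P = 0.000336), and *Birc5* had 2.66 for IL-2 in TB+ cells (adjusted P = 0.0935).

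Of the 9 genes for death receptors, their ligands and their signaling partners, PMA/I raised 4, namely *Fas*, *Fasl*, *Cflar* and *Tnfrsf10b*, both with and without IL-2. It lowered *Fadd*, *Tradd* and *Tnfsf10* with IL-2, where 35.1% of all genes passed, and these 3 and *Tnfrsf1a* in IL-2nil cells, where 61.2% did. Without both moved libraries *Tnfrsf10b* did not pass with IL-2 (log2 difference 0.79, adjusted P = 0.0559), nor *Tnfrsf1a* in IL-2nil cells (-0.66, adjusted P = 0.0911). *Fasl*, the ligand through which activated T cells kill each other, had 19.2 ± 8.89 scaled TPM in TB IL-2nil and 325 ± 71.2 in TB+ IL-2nil (log2 difference 4.08, SE 0.34, adjusted P = 4.65e-06). *Cflar*, whose product FLIP blocks the receptors' caspase, rose with IL-2 from 34.9 ± 3.76 to 177 ± 57.4 scaled TPM (log2 difference 2.26, adjusted P = 0.000207), while the adapter *Fadd* fell from 10.9 ± 0.728 to 2.51 ± 0.119 (log2 difference -1.76, adjusted P = 2.3e-05). As labelled, *Fasl* had 2.96 in IL-2nil cells (adjusted P = 0.0852), and with IL-2 *Cflar* had 1.88 (adjusted P = 0.116) and *Fadd* -1.38 (adjusted P = 0.184). Without both libraries these were 3.78 (adjusted P = 5.68e-05), 2.53 (adjusted P = 0.000219) and -1.75 (adjusted P = 0.000215).

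Among 15 tested regulators of the 10 genes, *Pim1*, a kinase that STAT5 induces and that phosphorylates BAD, rose with PMA/I in IL-2nil cells from 237 ± 118 to 1700 ± 510 scaled TPM (log2 difference 2.91, adjusted P = 5.41e-05). *Stat5a* rose by 2.05 there (adjusted P = 0.000635), and *E2f1*, a factor of the cell cycle, was higher with IL-2 in TB+ cells by 2.94 (adjusted P = 0.000352). *Foxo3*, one of the FOXO factors whose motif was searched in the promoters, was lower with IL-2 in TB cells, at 21.7 ± 1.91 scaled TPM against 36.9 ± 4 (log2 difference -0.74, adjusted P = 0.00358), and lower after PMA/I in IL-2nil cells, at 13.2 ± 1.42 (log2 difference -1.42, adjusted P = 2.1e-05). *Foxo3*, like *Cycs*, was named after its values were seen. *Foxo1*, in the same list, was not called in either of these comparisons. It had 70.6 ± 9.36 scaled TPM in TB IL-2, 117 ± 43.9 in TB IL-2nil and 141 ± 35.7 in TB+ IL-2nil. As labelled, *Pim1* had 2.51 (adjusted P = 0.0497), *Stat5a* 1.82 (adjusted P = 0.0595) and, for IL-2 in TB cells, *Foxo3* -0.01, and without both libraries they had 3.28 (adjusted P = 0.000113), 2.04 (adjusted P = 0.0022) and -0.67 (adjusted P = 0.0201).

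**Figure D5:**
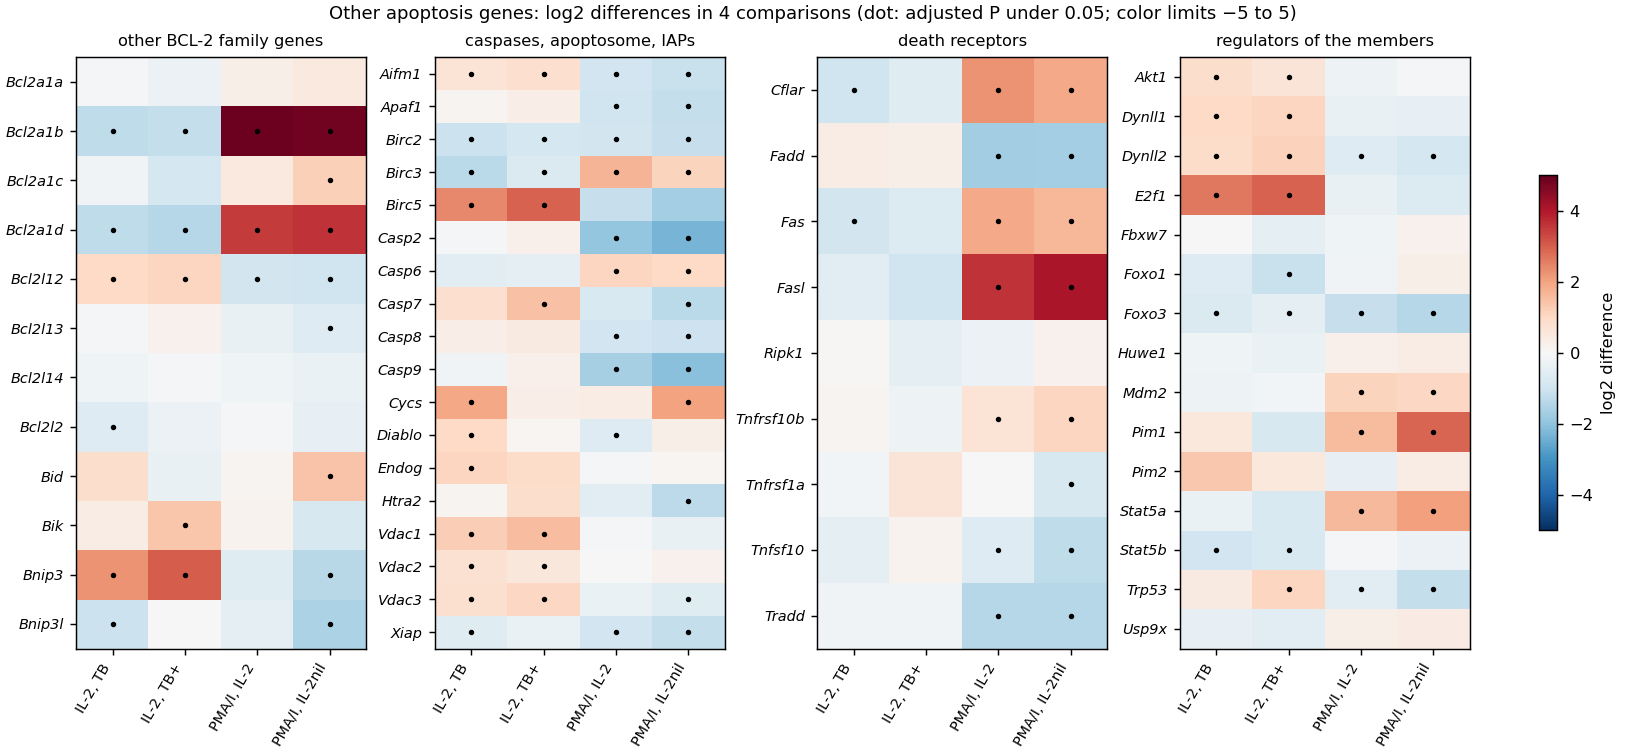
Log2 differences of 54 of the 55 other apoptosis genes tested, in 4 lists, for IL-2 in TB cells, IL-2 in TB+ cells, PMA/I with IL-2 and PMA/I in IL-2nil cells, in color from -5 (blue) to 5 (red). Dots mark an adjusted P under 0.05 over all genes. *Bcl2a1b*, *Bcl2a1d* and *Fasl* were the strongest red cells, in the PMA/I columns, and *Casp2* and *Casp9* were among the strongest blue ones there.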

How the data were processed

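RNA-Seq was performed by the authors on 12 cultures in 4 groups of 3. Per the labels and methods, directional libraries of rRNA-depleted RNA were trimmed with Trimmomatic 0.32, aligned to mm9 with HISAT2 2.1.0 and quantified on RefSeq models with StringTie 1.3.3. The deposited values are FPKM per gene name and library, summing to 193815 to 420487, without normalization between libraries. From these, TPM were computed by setting every library's sum to 1000000. Genes never above 1 TPM were dropped, which left 12442, and the 75th percentiles were made equal. The log2(TPM + 1) values entered limma 3.58.1 (under R 4.3.3) as a model of 4 groups with 8 residual degrees of freedom, no block or trend, and Benjamini-Hochberg adjustment over all genes. Intervals are 95% limma intervals. Absolute depth is unknown from FPKM. The planned test assumed TPM as the methods state.

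Groups followed the labels except for 2 libraries with replicate number 3, which were exchanged as in the study's own list of values per library, and both were also used as labelled and left out. Replicate numbers paired the libraries: the correlations of same-numbered deviations from the group means were 0.101 to 0.531 for all 18 pairs, and no source says what a number marks. A fit with the number as a block was an alternative, as were other scalings, pseudocounts and filters, and leaving out each library. The members and all gene lists were chosen with earlier results of these data known. Named from the lists were up to 4 genes per list with an adjusted P under 0.05 and over 3-fold in a comparison, by the size of the log2 difference, and any gene left where a count was 5 or fewer. For each of the 10 genes the 2 closest by Pearson's r were found, and the first or both are named. Gene positions came from a GENCODE annotation on mm9, and promoter windows from RefSeq annotation of GRCm38.p6. Only 3 of the 4 B cell markers were among the deposited gene names. On simulated data for IL-2 in TB cells over 12442 genes the fit recovered 91.5% of 200 changed genes, and 6.63% of its calls were false. The changed genes were drawn from the more highly expressed ones and changed 3-fold or more, with noise independent between libraries. All genes but these 200 were left unchanged, whereas 39.6% of all genes were called for IL-2 in TB cells in the data. These shares therefore do not apply to low genes, to smaller changes or to libraries paired by replicate number. Nor do they apply where a larger share of genes changes. The 3 tested of 5 myeloid markers had summed levels of 1.57 to 4.88 scaled TPM over the 12 libraries. One gene of the lists is counted but its values are not reported here. No count table was used.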

Additional observations from a re-analysis of the deposited data

Results flagged for a closer look

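The effect of IL-2 differed between TB+ and TB cells in the limma interaction for 4 genes named here, of the family and the apoptosis lists. The difference of the effects, TB+ minus TB on the log2 scale, was -2.29 for *Bcl2* (adjusted P = 0.0403), -2.17 for *Bcl2l1* (adjusted P = 0.0179) and 1.04 for *Bmf* (adjusted P = 0.0268). *Bmf* came to be tested only through TB IL-2nil, so its difference was partly built in. For *Cycs*, the gene of cytochrome c, the interaction was -1.61 (SE 0.34, adjusted P = 0.0307), with an IL-2 effect of 1.93 in TB and 0.32 in TB+ cells. Without the 2 moved libraries none of the 4 passed, with an adjusted P of 0.108 for *Cycs*. As labelled, all 4 had an adjusted P of 0.914, with the same estimates. TB IL-2nil replicate 2, without which no interaction of the 10 BCL-2 family genes passed, had the lowest relative depth of all libraries, 0.409, and the part of depth in these values was not tested.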

How the results depend on the processing

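Of 950 refits of the 50 differences of the 10 genes, 838 kept direction and side of the threshold, 65 lost a call, 28 gained one and 19 changed sign. None of the 23 called differences changed sign, and 11 of them were lost only with the libraries as labelled. The causes were not tested.

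As labelled, 1 of the 10 genes was called for IL-2 in TB cells, 1 for PMA/I with IL-2, 1 for PMA/I in IL-2nil cells, 0 for IL-2 in TB+ cells and 0 for the interaction, and of the other apoptosis genes 0, 1, 8, 0 and 0. Without both moved libraries, 1 of the 10 and 9 others were called for IL-2 in TB+ cells, and 0 and 0 for the interaction. The replicate block gave 5 of the 10 for IL-2 in TB+ cells and 5 for the interaction, with the added calls given beside the results, and it changed no other call of the 10 genes than those named there. Without upper-quartile scaling, 1 of the 10 was called for IL-2 in TB+ cells and 0 for the interaction. Of the others, 13 were called for IL-2 in TB cells, 17 for PMA/I with IL-2 and 0 for the interaction. For IL-2 in TB+ cells 14 of the others were called, all 14 higher. The median log2 difference of all genes moved there from -0.042 to 0.226, and the part of this shift in the 14 was not tested. A fit of only the 2 groups compared gave 1 of the 10 and 14 others for IL-2 in TB+ cells. A pseudocount of 0.1 gave 1 of the 10 for the interaction. The share of all genes called is not given for the fits without scaling, with only the 2 groups or with this pseudocount.

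Leaving out 1 library gave 6 to 7 of the 10 for IL-2 in TB cells, 3 to 5 for PMA/I with IL-2, 7 to 8 for PMA/I in IL-2nil cells, 1 to 3 for IL-2 in TB+ cells and 0 to 4 for the interaction. Of the other genes it gave 20 to 24, 21 to 26, 33 to 39, 10 to 19 and 0 to 3. The share of all genes called in each of these refits is not given, so the ranges show only how far the calls moved. The count of others for IL-2 in TB+ cells was 10 without the library labelled TB IL-2nil replicate 3 and 12 without TB+ IL-2nil replicate 1.

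Changes of sign were all in differences that were not called. As labelled, *Mcl1* had 0.048 for PMA/I in IL-2nil cells, *Bad* 0.143 for IL-2 in TB cells, and *Bmf* 0.185 for PMA/I with IL-2 and 0.311 for IL-2 in TB+ cells. Without upper-quartile scaling, *Bcl2* had 0.077 for IL-2 in TB+ cells, *Mcl1* -0.019 for PMA/I with IL-2 and *Bak1* 0.405 for the interaction, and with quantile normalization *Mcl1* had -0.235 for PMA/I with IL-2. Leaving out 1 library gave *Mcl1* -0.001 to 0.117 and *Bax* -0.301 to 0.064 for PMA/I with IL-2, *Bax* -0.006 to 0.463 and *Bak1* -0.271 to 0.162 for the interaction, and *Bbc3* -0.027 to 0.730 for IL-2 in TB+ cells. With 3 libraries a group and no counts, intervals such as -0.61 to 1.25 for *Pmaip1* with IL-2 in TB cells leave differences of low genes unresolved.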
